A study of Mus musculus with 6 samples.

Results

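The hair cell mechanotransduction complex was taken as 10 genes, *Tmc1*, *Tmc2*, *Lhfpl5*, *Tmie*, *Cib2*, *Cdh23*, *Pcdh15*, *Loxhd1*, *Ush1c* and *Ush1g*, chosen by symbol from what their proteins are known to do. For each symbol, the estimated counts and the FPKM values (fragments counted per kilobase of transcript and scaled for library size, a level per length) were summed over all of its transcripts in each sample. All 10 were found among 51802 gene symbols, and they held 80 of the 128603 listed transcripts, of which 49 had a count above 0 in at least 1 sample. RNA of cochleae at 2 months of age was sequenced from *Pou4f3(Δ/+)* mice, which carry 1 wildtype copy of *Pou4f3* and 1 knock-in copy with the small deletion of the human DFNA15 deafness family, and from their wildtype littermates (*Pou4f3(+/+)*). There were 3 samples of each genotype, labelled wildtype replicates 3, 4 and 5 and *Pou4f3(Δ/+)* replicates 1, 2 and 3. Both genotypes were on C57BL/6J, a strain that is homozygous for the *ahl* allele of *Cdh23*, so a variant of 1 of the 10 genes was shared by every sample. The labels do not say whether a sample was 1 animal or a pool, so the p-values measure only the spread between these samples, which may be technical.

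Hair cells turn sound into an electrical signal at their stereocilia, the rows of actin-filled protrusions of the hair bundle. When the bundle is deflected, the tip link, a thread of CDH23 at its upper end joined to PCDH15 at its lower end, pulls on an ion channel built on TMC1 or TMC2. LHFPL5, TMIE and CIB2 bind or traffic the channel subunits, and the scaffold proteins harmonin (*Ush1c*) and SANS (*Ush1g*) hold the upper end of the tip link. *Loxhd1* encodes a stereocilia protein of PLAT repeats that mature hair cells need for transduction. POU4F3 is a transcription factor of hair cells, and mutations in most of these genes cause deafness in mice and humans. The comparison asked whether the genes of the transduction apparatus differed in level between the genotypes at an age that the study chose because hearing loss was mild and no significant loss of hair cells had been seen.

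Libraries held 14295069 to 17696784 summed counts, and the 10 genes together held 69.3 to 70.2 CPM (counts scaled for library size) in wildtype and 71.4 to 78.4 CPM in *Pou4f3(Δ/+)* samples. The targeted gene, *Pou4f3*, had 68, 72 and 88 counts in wildtype and 66, 97 and 52 in *Pou4f3(Δ/+)* samples, a log2 fold change of -0.06 (SE 0.27, edgeR adjusted p = 0.966). By RT-qPCR at the same age, the paper reported lower wildtype *Pou4f3* in *Pou4f3(Δ/+)* cochleae. The count here is listed by symbol and not by allele, so it is no check of the labels. *Pou4f3(Δ/+)* replicates 1 and 2 stood apart from the other 4 samples. The 9 B cell markers summed to 683 and 726 CPM in them, against 434 in *Pou4f3(Δ/+)* replicate 3 and 377 to 425 in wildtype. The 8 stria vascularis markers averaged 7.09 and 6.92 on the log2 CPM scale in these 2 libraries, against 7.35 to 7.47 in the other 4. The log2 difference of each tested gene is therefore also given without them. That leaves *Pou4f3(Δ/+)* replicate 3 as the only library of its genotype, so such values carry no spread for that group. The transcripts, the order of levels and the marker lists are described over all 6 samples.

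None of the genes that entered the test passed the threshold (edgeR's quasi-likelihood test with Benjamini-Hochberg adjustment over all 17136 genes tested, adjusted p under 0.05). This count of 0 of 9 stands beside a background of 0% of all genes, and 0 of 9 also had an unadjusted p under 0.05, where 7.64% of all genes did (3.5% higher and 4.14% lower in *Pou4f3(Δ/+)*). DESeq2 called 0 of them, against 0.374% of all genes. *Tmc2* had too few counts for the test. Of the 9 genes, 7 had a higher fitted level in *Pou4f3(Δ/+)* and 2 a lower one, *Lhfpl5* and *Cib2*, while 49.4% of all genes had a log2 fold change above 0. Their median log2 fold change was 0.17, from -0.35 to 0.40, beside -0.0027 over all genes. The median was 0.068 without wildtype replicate 5, 0.10 without *Pou4f3(Δ/+)* replicate 3 and 0.051 to 0.065 with limma on FPKM, where *Ush1g* was left out. In whole cochlear RNA, fewer hair cells and less RNA per hair cell cannot be told apart. Each of the 9 intervals held no change, and the 95% intervals of the fold together reached from 0.528 for *Lhfpl5* to 2.41 for *Ush1g*. For the 8 genes other than *Ush1g*, no interval went above 1.75-fold.

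**Figure D1:**
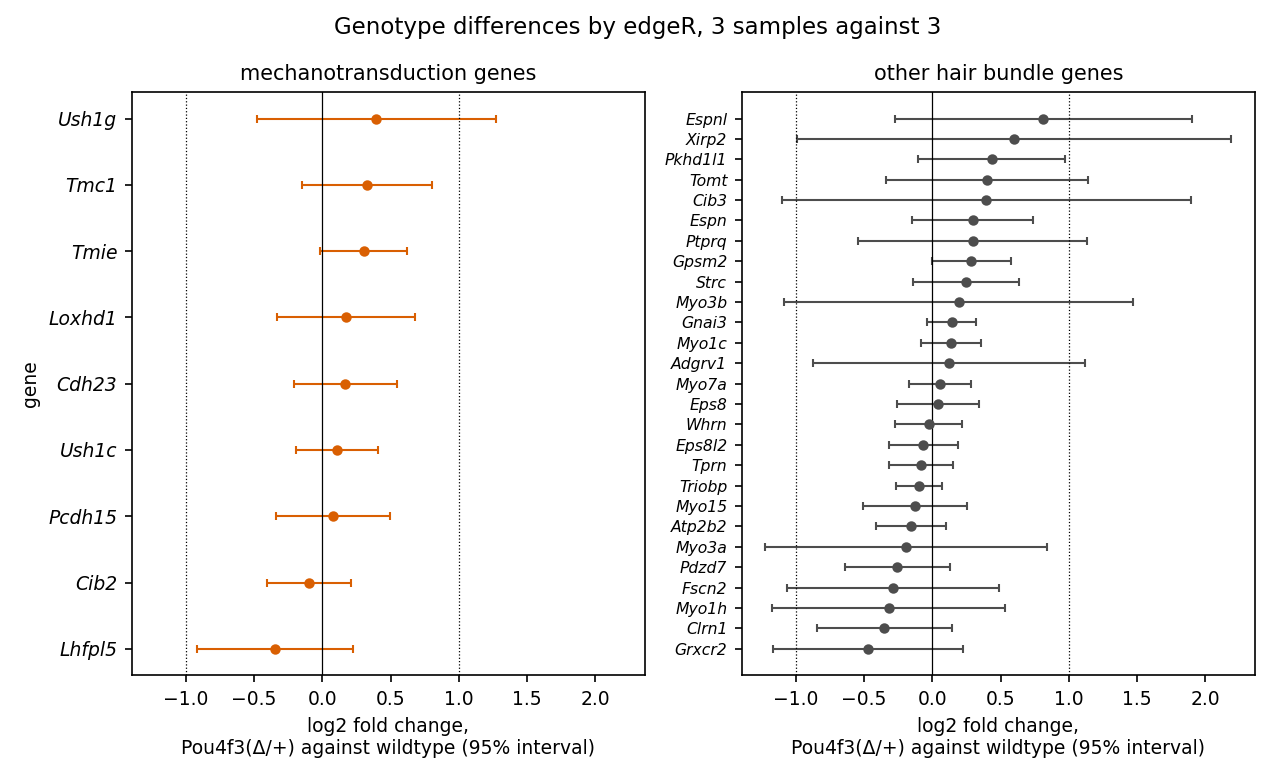
Log2 fold change, Pou4f3(Δ/+) over wildtype, of the 9 transduction genes that entered the edgeR test, with 95% intervals (3 samples per genotype). All 9 intervals cross 0, and the points lie between -0.35 for Lhfpl5 and 0.40 for Ush1g.

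*Tmc1* (ENSMUSG00000024749, chr19:20783458-20954202, minus strand, GRCm38) encodes the pore subunit of the channel in mature hair cells. Its level was 1.04, 1.39 and 1.64 FPKM in wildtype replicates 3, 4 and 5 and 1.65, 1.87 and 1.59 FPKM in *Pou4f3(Δ/+)* replicates 1, 2 and 3. The lowest sample was wildtype replicate 3, and the groups overlapped because wildtype replicate 5 lay above *Pou4f3(Δ/+)* replicate 3. These levels rested on 73 to 119 counts per sample. Wildtype samples averaged 1.36 ± 0.301 FPKM, and *Pou4f3(Δ/+)* samples averaged 1.70 ± 0.147 FPKM (SD, n = 3 each). The fold was 1.25, with a 95% interval of 0.902 to 1.75 (edgeR adjusted p = 0.703). The log2 difference went from 0.17 to 0.50 as each sample was left out in turn, and was 0.21 without *Pou4f3(Δ/+)* replicates 1 and 2.

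*Tmc2* (ENSMUSG00000060332, chr2:130195194-130264445, plus strand) encodes the channel subunit that cochlear hair cells use early in postnatal life, before *Tmc1* takes over. It had 0, 3 and 8 counts in wildtype and 0, 1 and 0 counts in *Pou4f3(Δ/+)* samples. Most of its 12 counts thus came from 1 library, wildtype replicate 5. A count of 0 allows up to 3 counts, and 5 of the 6 samples lay at or under that limit. Over the groups there were 11 counts against 1, a CPM ratio of 0.0926 with an exact interval of 0.00215 to 0.637 that covers counting error only. Without wildtype replicate 5 there were 3 counts against 1, a ratio of 0.220 with an interval of 0.00419 to 2.74. In a fit of every gene with any count, edgeR gave *Tmc2* an adjusted p of 0.742 (unadjusted 0.0605).

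*Lhfpl5* (ENSMUSG00000062252, chr17:28575641-28585679, plus strand) encodes a membrane protein that links PCDH15 to the channel. Its level was 2.69, 2.30 and 1.96 FPKM in wildtype and 1.86, 2.02 and 1.58 FPKM in *Pou4f3(Δ/+)* samples. Of the 9 genes it had the lowest fitted fold, 0.786, with a 95% interval of 0.528 to 1.17 (edgeR adjusted p = 0.740). Wildtype replicates 3 and 4 lay above every *Pou4f3(Δ/+)* sample, but wildtype replicate 5 lay below *Pou4f3(Δ/+)* replicate 2. The counts were few, from 29 to 58 per sample. On the log2 scale the difference was -0.45 to -0.22 as each sample was left out, and -0.57 without *Pou4f3(Δ/+)* replicates 1 and 2.

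*Tmie* (ENSMUSG00000049555, chr9:110865711-110880113, minus strand) encodes a small transmembrane protein that the channel needs in order to conduct. It had 170, 163 and 201 counts in wildtype and 249, 223 and 178 in *Pou4f3(Δ/+)* samples. Scaled for library size by TMM, these were 9.91, 11.3 and 11.8 CPM against 14.1, 14.6 and 12.0 CPM. It was the only 1 of the 9 tested genes whose groups did not overlap on this scale, where 12.7% of all genes did not overlap and 6.07% had *Pou4f3(Δ/+)* above and 6.59% had it below. The gap between wildtype replicate 5 and *Pou4f3(Δ/+)* replicate 3 was small. On the FPKM scale, summed over its 3 transcripts, the groups did overlap, at 3.51, 4.33 and 4.88 in wildtype and 5.73, 5.30 and 4.33 in *Pou4f3(Δ/+)* samples. The fold of 1.23 had a 95% interval of 0.990 to 1.53 and an edgeR p of 0.0589, the lowest of the 9 genes but rank 1560 of 17136 genes (adjusted p = 0.647). The log2 difference of 0.30 was 0.39 without *Pou4f3(Δ/+)* replicate 3, where its adjusted p of 0.211 was the lowest that any gene of the complex reached, and 0.12 without *Pou4f3(Δ/+)* replicates 1 and 2.

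*Cib2* (ENSMUSG00000037493, chr9:54544794-54560218, minus strand) encodes a calcium- and integrin-binding protein that binds the TMC proteins and is also made in many other tissues. It was the most abundant of the 10 per length, at 14.8, 13.5 and 14.5 FPKM in wildtype and 11.3, 12.9 and 15.9 FPKM in *Pou4f3(Δ/+)* samples. The *Pou4f3(Δ/+)* group held both the lowest and the highest sample, and its SD of 2.31 was above the 0.684 of wildtype. With 276 to 365 counts per sample the fold was 0.934 (95% interval 0.754 to 1.16, edgeR adjusted p = 0.859). This small difference changed direction with the libraries used. It was 0.0096 on the log2 scale without *Pou4f3(Δ/+)* replicate 1 and 0.13 without replicates 1 and 2, the other direction from the -0.10 of all 6 samples.

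**Figure D2:**
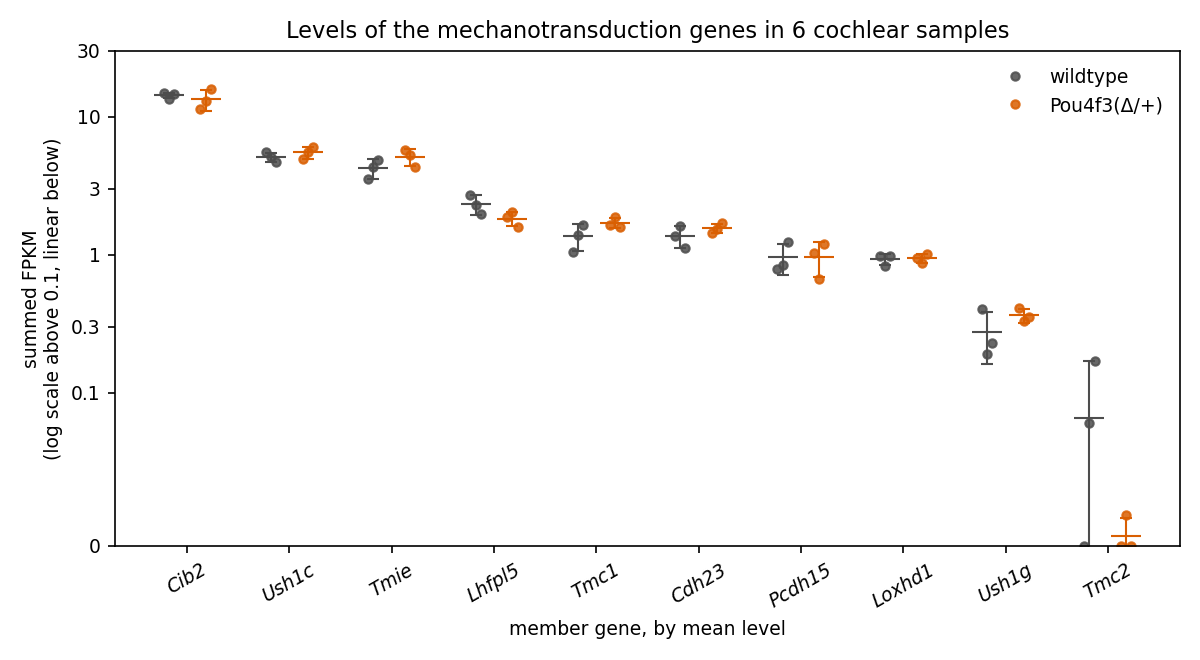
Summed FPKM of the 10 transduction genes in each of the 6 cochlear samples, on a log-type axis that is linear near 0, with group means and SD (n = 3). Cib2 lies highest, at 11.3 to 15.9 FPKM, and Tmc2 lowest, at 0 to 0.17 FPKM, and the genotypes overlap for all 10 genes.

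*Cdh23* (ENSMUSG00000012819, chr10:60302748-60696490, minus strand) encodes cadherin 23, the upper part of the tip link. It was listed at 1.37, 1.60 and 1.12 FPKM in wildtype and 1.44, 1.52 and 1.69 FPKM in *Pou4f3(Δ/+)* samples. The groups overlapped, with wildtype replicate 5 lowest and *Pou4f3(Δ/+)* replicate 3 highest. On 103 to 147 counts per sample the fold was 1.12 (95% interval 0.866 to 1.46, edgeR adjusted p = 0.802). The log2 difference of 0.17 fell between 0.064, without wildtype replicate 5, and 0.26 as each sample was left out, and was 0.16 without *Pou4f3(Δ/+)* replicates 1 and 2.

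*Pcdh15* (ENSMUSG00000052613, chr10:73099342-74649737, plus strand) encodes protocadherin 15, the lower part of the tip link. Its level was 0.79, 0.84 and 1.23 FPKM in wildtype and 1.02, 0.66 and 1.20 FPKM in *Pou4f3(Δ/+)* samples. Both groups spread over most of the same range, and their means of 0.953 ± 0.241 and 0.960 ± 0.275 FPKM (SD, n = 3 each) lay well within it. The fold was 1.06 (95% interval 0.791 to 1.41, edgeR adjusted p = 0.925). On the log2 scale the difference was 0.08, and 0.26 without *Pou4f3(Δ/+)* replicates 1 and 2. It changed direction without *Pou4f3(Δ/+)* replicate 3 (-0.012) and with limma on log2(FPKM + 0.1) (-0.0027). Both tip link genes were thus measured at similar levels per length in both genotypes, with intervals that reached from 0.791 to 1.46.

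*Ush1c* (ENSMUSG00000030838, chr7:46195350-46238503, minus strand), the gene of harmonin, was the next most abundant after *Cib2*. It had 5.50, 5.07 and 4.71 FPKM in wildtype and 4.92, 5.51 and 6.05 FPKM in *Pou4f3(Δ/+)* samples. On the log2 scale its interval was the narrowest of the 9, a fold of 1.08 with 95% limits of 0.874 and 1.32 (edgeR adjusted p = 0.842). The log2 difference of 0.11 was 0.059 without wildtype replicate 5, 0.17 without wildtype replicate 3 and 0.17 without *Pou4f3(Δ/+)* replicates 1 and 2. *Ush1g* (ENSMUSG00000045288, chr11:115315192-115322041, minus strand), the gene of SANS, stood at 0.40, 0.19 and 0.23 FPKM in wildtype and 0.41, 0.33 and 0.35 FPKM in *Pou4f3(Δ/+)* samples. Wildtype replicate 3 lay within the range of the *Pou4f3(Δ/+)* samples, and the other wildtype samples lay below it. These values came from only 9 to 24 counts, and the interval was the widest, a fold of 1.32 with limits of 0.719 and 2.41 (edgeR adjusted p = 0.799). Its log2 difference of 0.40 became 0.79 without wildtype replicate 3, 0.20 without wildtype replicate 4, and 0.32 without *Pou4f3(Δ/+)* replicates 1 and 2.

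*Loxhd1* (ENSMUSG00000032818, chr18:77281958-77442930, plus strand), the gene of the PLAT repeat protein, was measured at 0.97, 0.83 and 0.98 FPKM in wildtype and 0.95, 0.87 and 1.01 FPKM in *Pou4f3(Δ/+)* samples. The ranges nearly coincided, and the means of 0.927 ± 0.0839 and 0.943 ± 0.0702 FPKM (SD, n = 3 each) were close. With 54 to 69 counts per sample the fold was 1.13 (95% interval 0.796 to 1.60, edgeR adjusted p = 0.846). The log2 difference of 0.17 moved between 0.068, without wildtype replicate 5, and 0.29 as each sample was left out, and was 0.32 without *Pou4f3(Δ/+)* replicates 1 and 2.

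Per length, the order of mean levels over the 6 samples was *Cib2* at 13.8 FPKM, *Ush1c* at 5.29, *Tmie* at 4.68, *Lhfpl5* at 2.07, *Tmc1* at 1.53, *Cdh23* at 1.46, *Pcdh15* at 0.957, *Loxhd1* at 0.935, *Ush1g* at 0.318 and *Tmc2* at 0.045. *Cib2* was 9.02 times as abundant as *Tmc1*. Neighbours in this order were compared by a two-sided exact sign-flip permutation test on log2(FPKM + 0.1) over the 6 samples. The smallest possible p was 0.03125 and, over 9 pairs, no adjusted p fell under 0.05. The order was taken from the same values, so the pairs and their direction were fixed beforehand. These p-values describe the spread between samples and lend the order no support. The upper gene of the pair was higher in 6 of 6 samples for *Cib2* over *Ush1c*, *Tmie* over *Lhfpl5*, *Loxhd1* over *Ush1g* and *Ush1g* over *Tmc2* (exact permutation p = 0.03125, adjusted 0.0703). The difference between *Cib2* and *Ush1c* was 1.36 ± 0.152 on this log2 scale (SD, n = 6). *Lhfpl5* over *Tmc1* and *Cdh23* over *Pcdh15* held in 5 of 6 samples (exact permutation p = 0.0625). The summed levels include transcripts not annotated as coding. In wildtype replicate 4, Cdh23-206, a processed transcript, gave 0.48 of the 1.60 FPKM of *Cdh23* from 3 counts. The largest coding transcripts stood the other way, with wildtype means of 0.237 FPKM for Cdh23-201 and 0.68 for Pcdh15-234. The order of coding transcripts alone was not tested. In the pairs *Ush1c* over *Tmie*, *Tmc1* over *Cdh23*, and *Pcdh15* over *Loxhd1*, the upper gene was higher in 4, 3 and 4 of 6 samples. Their exact permutation p was 0.219, 0.688 and 0.969.

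Coding transcripts of *Cdh23* and *Ush1c* differ by exons that change the protein, and these exons are shown because the deposited values split the genes by them. Near the 3′ end of its coding sequence *Cdh23* has an alternative exon of 105 bases, or 35 codons, in the part that encodes the cytoplasmic tail. It is exon 66 of 67 of Cdh23-201 (ENSMUST00000073242), at chr10:60304424-60304528 on the minus strand of GRCm38. Cdh23-203 (ENSMUST00000105462) joins the flanking exons without it. The exon of *Cdh23* is in capitals in the first line, with 20 bases of the neighbouring exons on either side, and the capitals of the second line mark the 3 bases on each side of the join that leaves it out.
Cdh23 with the exon: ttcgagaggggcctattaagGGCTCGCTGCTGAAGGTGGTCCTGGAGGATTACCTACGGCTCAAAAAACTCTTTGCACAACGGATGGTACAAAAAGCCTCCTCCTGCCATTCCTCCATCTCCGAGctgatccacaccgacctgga
Cdh23 without the exon: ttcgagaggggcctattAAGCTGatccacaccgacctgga

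Transcripts of *Cdh23* with this exon (5 listed) summed to 0.39, 0.41 and 0.67 FPKM in wildtype and 0.91, 0.68 and 1.05 FPKM in *Pou4f3(Δ/+)* samples. Those that skip it (4 listed) summed to 0.61, 0.48 and 0.38 FPKM and to 0.10, 0.43 and 0 FPKM. By FPKM the form with the exon made up 39.0%, 46.1% and 63.8% of the 2 forms in wildtype and 90.1%, 61.3% and 100% in *Pou4f3(Δ/+)* samples. Wildtype replicate 5 lay above *Pou4f3(Δ/+)* replicate 2, so the groups overlapped. By estimated counts the shares were 67.3%, 62.4% and 92.9% in wildtype and 95.4%, 84.3% and 99.96% in *Pou4f3(Δ/+)*, which also overlapped. Both classes include transcripts not annotated as protein coding. In wildtype replicate 3, the processed transcript Cdh23-214 held 0.51 of the 0.61 FPKM without the exon. In *Pou4f3(Δ/+)* replicate 3, the processed transcript Cdh23-212 held 0.60 of the 1.05 FPKM with it. The shares are therefore not shares of protein forms. This split by the exon was chosen after its values were seen and is given as a description with no test.

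The assignment of reads to single *Cdh23* transcripts varied widely between replicates of 1 genotype. Cdh23-201, the transcript with the largest share of the wildtype FPKM, had 46.0, 11.2 and 71.3 estimated counts in wildtype and 0, 69.2 and 70.1 in *Pou4f3(Δ/+)* samples. Cdh23-205, a transcript of 70 exons that also holds the exon, had 27.0, 52.8 and 0 counts in wildtype and 101, 0 and 0 in *Pou4f3(Δ/+)* samples. In several samples 1 of the pair was at 0 where the other was high, while the gene's total stayed between 103 and 147 counts. Summed values of *Cdh23* therefore varied less than those of its transcripts.

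For *Ush1c*, the alternative exons lie in the middle of the coding sequence. Ush1c-202 (ENSMUST00000078680), of 21 exons, uses an exon of 62 bases at chr7:46216018-46216079. Ush1c-201 (ENSMUST00000009667), of 27 exons, has in its place a run of 6 other exons with 974 bases, the longest of 483 bases at chr7:46208850-46209332, and the run begins with an exon of 50 bases at chr7:46214931-46214980. The next 2 lines show the 62-base exon of Ush1c-202 and the 50-base exon of Ush1c-201 in capitals, each between 20 bases of its neighbouring exons. The bases before the capitals are the same in both, since both exons follow the same upstream exon.
Ush1c shorter form: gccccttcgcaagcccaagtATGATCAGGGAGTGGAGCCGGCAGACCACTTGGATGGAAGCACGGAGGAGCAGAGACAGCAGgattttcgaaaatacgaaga
Ush1c longer form: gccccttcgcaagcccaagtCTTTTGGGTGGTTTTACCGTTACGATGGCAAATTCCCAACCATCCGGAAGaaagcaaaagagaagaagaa

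The shorter form led in every sample. Transcripts of *Ush1c* without the 483-base exon summed to 4.06, 3.88 and 3.28 FPKM in wildtype and 3.62, 4.10 and 4.87 FPKM in *Pou4f3(Δ/+)* samples. The longer form summed to 1.44, 1.09 and 1.35 FPKM in wildtype and 1.30, 1.32 and 1.08 FPKM in *Pou4f3(Δ/+)* samples. Its share of the 2 forms was 26.2%, 21.9% and 29.2% in wildtype and 26.4%, 24.4% and 18.2% in *Pou4f3(Δ/+)*, so the groups overlapped. The longer form includes Ush1c-204, annotated as a target of nonsense-mediated decay and not as protein coding. That transcript held 1.14 of the 1.32 FPKM of the longer form in *Pou4f3(Δ/+)* replicate 2. Ush1c-202 alone held 73.4% of the gene's mean wildtype FPKM and 74.8% of its mean *Pou4f3(Δ/+)* FPKM.

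**Figure D3:**
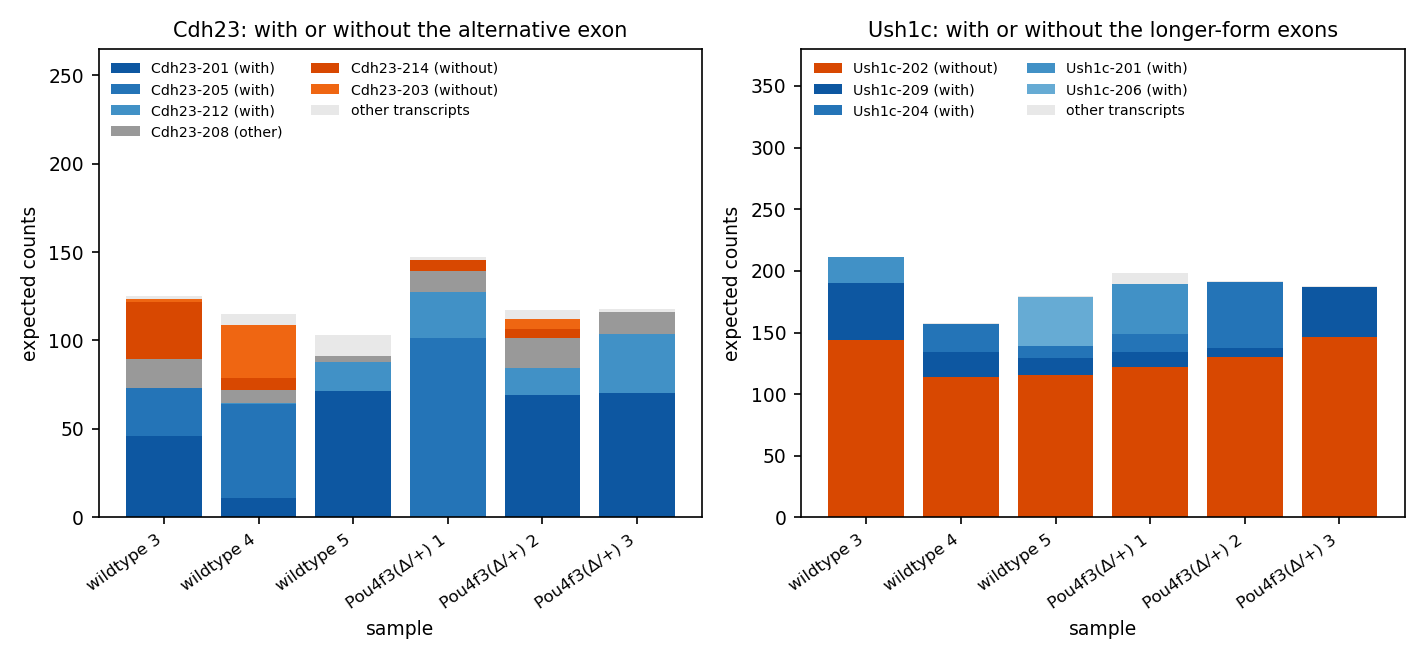
Estimated counts of Cdh23 and Ush1c in each sample, stacked by transcript, where blue transcripts hold the 105-base exon of Cdh23 or the 483-base exon of Ush1c, orange ones leave it out, dark grey ones could be placed in neither class and light grey stands for the remaining transcripts of any class. Cdh23-201 is at 0 in Pou4f3(Δ/+) replicate 1 and Cdh23-205 at 0 in 3 samples, while Ush1c-202 is the largest segment of Ush1c in all 6 samples.

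At the level of transcripts, 14 of the 80 entered the edgeR test and 0 passed, beside 0% of all 38347 transcripts tested. None of the 14 had an unadjusted p under 0.05, where 4.14% of all transcripts did, and DESeq2 called 0, against 0.34%. *Tmc1*, *Lhfpl5*, *Cib2* and *Ush1g* each have 1 listed transcript. *Pcdh15* has 41, of which 18 had any count, and Pcdh15-234 (ENSMUST00000191854, 35 exons) held 71.3% of its mean FPKM in wildtype and 68.8% in *Pou4f3(Δ/+)*. Its level was 0.68 ± 0.01 and 0.66 ± 0.10 FPKM (SD, n = 3 each), a closer match between wildtype replicates than that of the whole gene. Tmie-201 held 91.2% of the *Tmie* FPKM in wildtype and 93.3% in *Pou4f3(Δ/+)*. Of the 14 tested transcripts, 2 had FPKM values that did not overlap between the groups, both with *Pou4f3(Δ/+)* above, where 10.5% of all tested transcripts did not overlap and 5.39% had *Pou4f3(Δ/+)* above. Tmie-201 was 1 of them, at 3.51, 4.02 and 4.07 in wildtype and 4.89, 5.11 and 4.33 in *Pou4f3(Δ/+)* (edgeR log2 fold change 0.30, SE 0.16, adjusted p = 0.999). The other was Cdh23-212, a processed transcript of 23 exons, at 0, 0.01 and 0.25 FPKM in wildtype and 0.39, 0.26 and 0.60 FPKM in *Pou4f3(Δ/+)* (edgeR log2 fold change 2.17, SE 1.40, adjusted p = 0.999). The *Loxhd1* transcript with the largest share of the wildtype FPKM, 36.7%, was Loxhd1-203, annotated as a processed transcript. The coding Loxhd1-202 held more of the counts, 53.4% against 14.7% in wildtype, and more of the *Pou4f3(Δ/+)* FPKM, 42.4% against 25.4%. The deposited lengths of 4 of the 5 *Loxhd1* transcripts differ from their GENCODE M21 spans, so the quantified models may not be the annotated ones.

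A wider list of 30 other genes of the hair bundle and its transduction and link complexes was read from the same fit. Of these, 27 were tested and 0 passed in edgeR or DESeq2, beside 0% and 0.374% of all genes. In edgeR 0 had an unadjusted p under 0.05, where 7.64% of all genes did. There were 15 with a higher fitted level in *Pou4f3(Δ/+)* and 12 with a lower one, and the median log2 fold change was 0.06, from -0.47 to 0.81. The 3 most abundant were *Gnai3*, a G protein subunit that shapes the bundle, at 54.6 FPKM, *Myo1c*, a myosin linked to adaptation, at 28.6 FPKM, and *Triobp*, which bundles actin in stereocilia rootlets, at 26.1 FPKM. Their log2 fold changes were 0.14, 0.13 and -0.10 (edgeR adjusted p = 0.665, 0.738 and 0.743), and all are also made by many cells other than hair cells. *Myo7a*, the motor protein that binds harmonin and SANS, and *Tomt*, which hair cells need to bring TMC proteins to the bundle, are named for these ties after their values were seen. *Myo7a* averaged 8.79 ± 0.739 FPKM in the wildtype group and 9.36 ± 0.901 in the *Pou4f3(Δ/+)* group (SD, n = 3 each; edgeR adjusted p = 0.894), and *Tomt* had 1.14 ± 0.452 and 1.46 ± 0.444 FPKM (adjusted p = 0.767).

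Hair cells are few among the cells of the cochlea, so the levels were set beside markers of the cell types a cochlea holds. Of 20 hair cell markers outside the lists above, 19 were tested and 0 were called by edgeR or DESeq2, beside 0% and 0.374% of all genes. Of the 19, 7 were higher and 12 lower, with a median log2 fold change of -0.04. *Otof*, the synaptic calcium sensor of inner hair cells, averaged 5.01 ± 0.145 in the wildtype group and 4.44 ± 1.02 FPKM in *Pou4f3(Δ/+)*, and *Slc26a5*, the outer hair cell motor prestin, had 1.64 ± 0.223 and 1.61 ± 0.310 FPKM (SD, n = 3 each). *Cabp2*, picked after its values were seen, was listed at 0 in all 6 samples. The most abundant of the list, *Calb2*, *Pvalb* and *Myo6*, at 282, 103 and 31.3 FPKM, are not particular to hair cells. Averaged over these markers, log2 CPM was 3.60, 3.70 and 3.76 in wildtype and 3.41, 3.70 and 3.76 in *Pou4f3(Δ/+)*, lowest in *Pou4f3(Δ/+)* replicate 1. The same mean over the 9 transduction genes was 2.62, 2.54 and 2.50 in wildtype and 2.66, 2.69 and 2.69 in *Pou4f3(Δ/+)*. These groups did not overlap. Of single genes, 6.07% had *Pou4f3(Δ/+)* above on the CPM scale, and no such share was computed for means of lists. With the hair cell marker mean as a covariate, 0 of the 9 genes passed and their median log2 fold change was 0.14.

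Markers of some other cell types moved with *Pou4f3(Δ/+)* replicates 1 and 2. All 9 B cell markers, of which *Cd79a*, *Cd79b* and *Ebf1* were the most abundant, had a higher fitted level in *Pou4f3(Δ/+)*, 8 of them at an unadjusted p under 0.05 in edgeR and 4 called by DESeq2, with a median log2 fold change of 0.84. All 7 red blood cell markers, led by *Hbb-bs*, *Hba-a1* and *Hbb-bt*, had a higher fitted level too, with a median of 0.30, 2 at an unadjusted p under 0.05 and 1 called by DESeq2. The 8 stria vascularis markers, led by *Atp1b2*, *Dct* and *Slc12a2*, all had a lower fitted level, with a median of -0.24, 3 at an unadjusted p under 0.05 and 2 called by DESeq2. Of the 8 bone markers 4 were lower at an unadjusted p under 0.05 and 0 were called by DESeq2, with a median of -0.21 and a lowest value of -1.07. Their summed CPM was 2128, 2244 and 2199 in *Pou4f3(Δ/+)* and 2441 to 3520 in wildtype, so on that scale replicate 3 was low too. Medians for supporting cell, neuron, Schwann cell and neutrophil markers were 0.01, -0.13, -0.14 and -0.02. At an unadjusted p under 0.05 there were 0 of 12, 0 of 10, 1 of 8 and 1 of 8 of these markers. Of all genes, 7.64% had an unadjusted p under 0.05 in edgeR and 0.374% were called by DESeq2. In edgeR, 0 markers of any of these lists passed the adjusted threshold, beside 0% of all genes. The part of these cell types in the fold changes of the transduction genes was not tested.

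**Figure D4:**
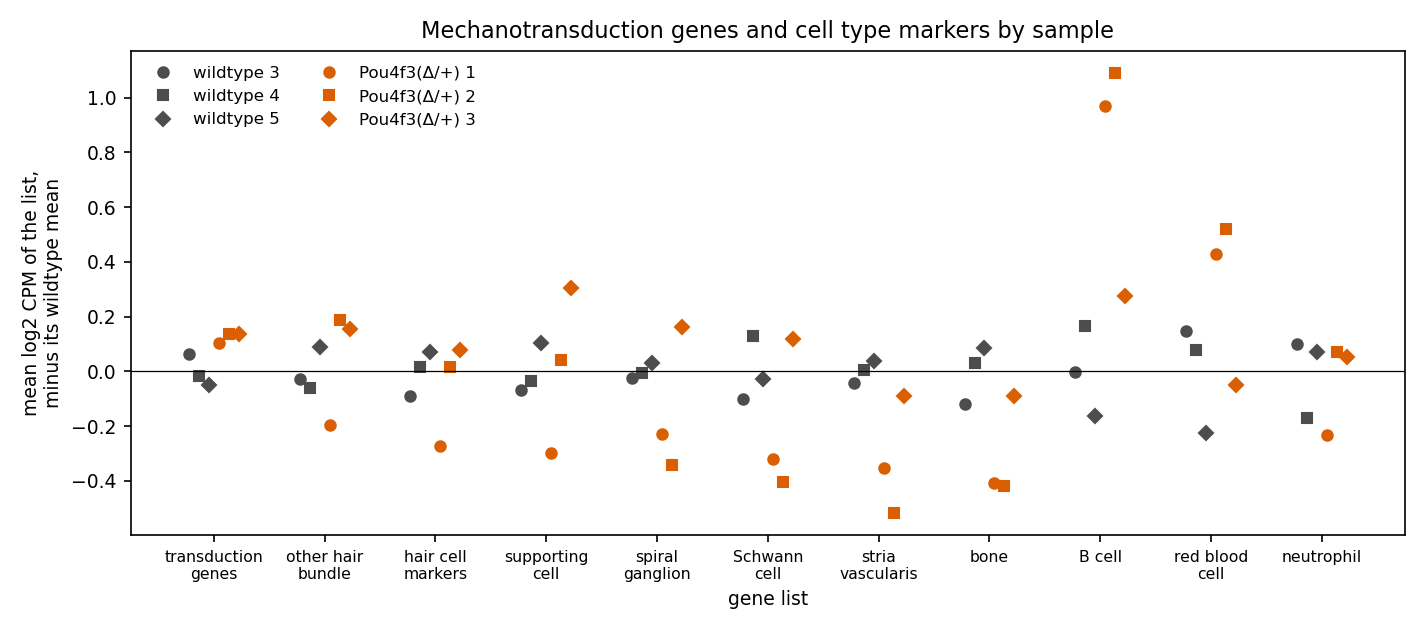
Mean log2 CPM of each gene list in each sample, minus the mean of the 3 wildtype samples (grey, wildtype; orange, Pou4f3(Δ/+)). The transduction genes have means of 2.50 to 2.62 in wildtype and 2.66 to 2.69 in Pou4f3(Δ/+), which do not overlap. Neither do the B cell means, with Pou4f3(Δ/+) above, or the stria vascularis means, with it below. The B cell markers are high and the stria vascularis and bone markers low in Pou4f3(Δ/+) replicates 1 and 2.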

How the data were processed

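Cochlear RNA libraries (poly(A) selection or rRNA removal, per the labels) were sequenced in 3 wildtype and 3 *Pou4f3(Δ/+)* samples. The authors deposited, per sample and transcript, a length, an estimated count and an FPKM. The aligner and counter are not given in the sources used here. The submitters' processing notes name mm8 and DESeq2, but 99.5% of the transcript identifiers are in GENCODE M21 (GRCm38), and the deposited length equalled the genomic span for 97.2% of these, so coordinates and sequences are those of GRCm38.

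Estimated counts and FPKM were summed by symbol. Summed counts were rounded and tested with edgeR 4.0.16 (filterByExpr, minimum count 10, total 15; TMM; quasi-likelihood test; Benjamini-Hochberg adjustment over all genes). Transcripts were tested likewise. DESeq2 1.42.0 and limma 3.58.1 on log2(FPKM + 0.5), for genes with a mean of at least 0.5 FPKM, were alternatives, as were another scaling, no filter, other pseudocounts, left-out samples and a hair cell covariate. The scripts were tested on simulated data with 200 changed features, and the share of these that was called is not given here. One count per kilobase was worth 0.0565 to 0.0700 FPKM. No 2 samples agreed within sampling noise (chi-square per degree of freedom 6.90 to 24.2). The notation ± is the SD, and counting intervals are exact.

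The genes and lists were chosen with earlier results of these data known. Named were all 10 genes, the transcript of each with the largest wildtype share, the 3 most abundant genes of a list, and the 5 genes most like the mean of the 9 tested. *Otof* and *Slc26a5* stand for hair cells, and other genes are said to be picked after their values were seen.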

Additional observations from a re-analysis of the deposited data

How the results depend on the processing

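None of the transduction genes, their transcripts or the other hair bundle genes passed the threshold under any alternative run, and of 123 gene values 119 kept their direction. The number of genes called over the whole table was 0 in edgeR, 64 with DESeq2, 9 with no filter, 6 without both *Pou4f3(Δ/+)* replicates 1 and 2, and 0 to 193 with 1 sample left out. The largest count came without *Pou4f3(Δ/+)* replicate 3, which leaves the 2 libraries that stood apart, and 3 genes were called without wildtype replicate 4. The median log2 fold change of the transduction genes, 0.17, was 0.14 with no filter, where *Tmc2* joined the 9 genes, 0.14 with the hair cell covariate, 0.058, 0.065 and 0.051 with limma at pseudocounts of 0.5, 0.1 and 1, where *Ush1g* was left out, and 0.068 to 0.20 with 1 sample left out. *Cib2* reversed without both *Pou4f3(Δ/+)* replicates 1 and 2 (0.13, with 1 *Pou4f3(Δ/+)* library left) and without replicate 1 alone (range -0.22 to 0.0096 over the samples left out). *Pcdh15* reversed with limma at a pseudocount of 0.1 (-0.0027) and without *Pou4f3(Δ/+)* replicate 3 (range -0.012 to 0.22). The cause was not tested.

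*Ush1g* fell below the FPKM filter of the limma fits. Counts per kilobase were not run because the deposited length is a genomic span, and the bundle genes' alternatives other than DESeq2 were chosen after seeing the data. No paired analysis was possible because the genotypes share a single replicate number. Depth limited *Tmc2* (0 to 8 counts) and *Ush1g* (9 to 24 counts).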

Other observations

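Several relatives of these genes in the mouse genome were abundant in these cochlear samples. The samples also held blood cell RNA, with the 8 neutrophil markers at 12852 to 15646 summed CPM. Which cells the RNA of the relatives came from was not tested. Of 15 listed paralogs 13 were tested and 0 passed in edgeR or DESeq2, beside 0% and 0.374% of all genes. Of the 13, 6 were higher in *Pou4f3(Δ/+)* and 7 lower, with a median log2 fold change of -0.03. The most abundant were *Lhfp* at 30.3 FPKM, *Lhfpl3* at 21.3 FPKM and *Cib1* at 20.7 FPKM. *Lhfp* was the only paralog with an unadjusted p under 0.05 in edgeR (log2 fold change -0.25, SE 0.10, adjusted p = 0.643), 1 of 13 where 7.64% of all genes had one. On the CPM scale its groups did not overlap, with *Pou4f3(Δ/+)* below, and neither did those of *Tmc6*, with *Pou4f3(Δ/+)* above (0.18, SE 0.09, adjusted p = 0.647), beside 12.7% of all genes. The 6 *Tmc* relatives were picked out after their values were seen. *Tmc6* stood at 19.1 FPKM, *Tmc4* at 10.7 FPKM and *Tmc8* at 9.69 FPKM, above *Tmc1* at 1.53 FPKM, while *Tmc7* at 1.12 FPKM, *Tmc3* at 0.467 FPKM and *Tmc5* at 0.328 FPKM stood below it.

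Across the 6 samples, the genes whose log2 CPM was most like the mean of the 9 tested transduction genes were *Hnrnpk*, *5330438D12Rik*, *Il12rb2*, *Nt5dc1* and *Twistnb*, with Pearson's r of 0.996, 0.992, 0.992, 0.991 and 0.989. These are the highest of 17136 genes over 6 samples that share their libraries and depth, and they are given as a description with no test.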
